A study of Mus musculus with 9 samples.

Results

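The genes described here are 71 of the 22036 genes in the deposited expression table whose level in libraries of sorted mouse microglia stood highest at 15 months of age and lower on both sides, at 6 and at 23 months. They were selected on the measured values: a mean over 9 libraries of at least 7 on the log2 scale, a 15-month mean at least 0.25 above the mean at 6 months and at least 0.25 above the mean at 23 months, and every 15-month library above every other library. Of the 22036 genes, 10611 reached the minimum mean, so that 0.669% of those were selected, below the limit of 300 that the rule allows. All 71 also passed the filter on low values used for testing. The height of the peak is therefore what chose the genes and is given below as a description only. The difference between 23 and 6 months carries no threshold of its own in the rule, although it uses the same young and old libraries. A gene with a large difference there needs a 15-month mean above the higher end to pass, so the rule holds such genes back. Tests of this pair are read gene by gene, and low counts over the group are partly set by the selection.

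RNA was sequenced from flow-sorted microglia, brain-resident macrophages, of female wild-type C57BL/6 mice that were 6 months (young), 15 months (middle-aged) or 23 months (old) of age. Each age had 3 libraries, and each library was a pool of microglia from 3 mice, made with the SMARTer Ultra Low RNA kit. The spread between libraries is thus a spread between pools of animals, and no animal received a treatment that the labels name. Neither the gate of the sort nor read totals are given in the sources used here, and the depth is unknown. Libraries are called Y1 to Y3, M1 to M3 and O1 to O3 by age and replicate number, and values are listed in that order. All 10 microglia markers examined were abundant, with means from 14.8 (C1qa) to 18.8 (Csf1r) on the log2 scale. Transcripts known from neutrophils were abundant too, with a mean of 17.6 for Ngp. In M2 the 10 microglia markers summed to 1570000 in linear normalized units, beside 1070000 for 16 neutrophil markers. Library O3 stood apart on the first principal component (29.9, against -14.4 to 5.90 in the other 8 libraries), and M2 had the highest summed level of 16 neutrophil markers.

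Several kinds of gene make up the group. Heat shock proteins are chaperones that bind unfolded proteins, and their inducible members are transcribed within minutes of protein-damaging stress through the heat shock factor Hsf1. Immediate early genes, among them the AP-1 subunits Fos and Jun and the Egr factors, are transcribed within minutes of receptor or stress signalling without new protein synthesis, and their products include inhibitors that end the same signals. In microglia both programmes are known to respond quickly to inflammatory stimuli. What set their levels in these sorted cells, before or during the sort, was not tested.

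The peaks were low on the deposited scale. Over the 71 genes the median middle-aged minus young difference was 0.36 on it, and 0.50 in the authors' deposited table. The median old minus middle-aged difference was -0.37, and -0.43 in the authors' deposited table. The distance from the 15-month mean to the higher of the other means, called the gap here, ran from 0.25 to 0.68 on the log2 scale with a median of 0.32, or 1.25-fold, and 9 genes had a gap of at least 0.5. The 9-library means of the 71 genes ran from 7.25 to 14.30 with a median of 10.19, against a median of 10.49 over all genes that reached the minimum mean. The 3 genes just inside the gap threshold were Crebbp (0.2519), Irf2bpl (0.2526) and Rc3h1 (0.2535), and the 3 just outside it were Lmna (0.2471), Smarca5 (0.2441) and Bbip1 (0.2401). The same rule turned over, for genes lowest at 15 months, found 69 genes, while 230 genes met it with their highest level at 6 months and 272 with their highest level at 23 months. A peak at 15 months was thus about as frequent as a trough at that age.

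Each 15-month library lay above all the others by the rule, but often by little. The lowest 15-month library exceeded the highest library of the other ages by a median of 0.08, from 0.001 (Klf2) to 0.24 (Zfp995), and in 47 of the 71 genes by under 0.1. M2 was the highest library in 45 of the 71 genes, M3 in 15 and M1 in 11. Among the young libraries Y1 was the lowest in 46 genes, and among the old libraries O3 was the lowest in 28, O1 in 27 and O2 in 16. With M2 left out the median gap was 0.29 and 51 genes still had a gap of at least 0.25; with Y1 left out the median was 0.31 and 63 genes did; with O3 left out it was 0.32, again with 63 genes.

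**Figure D1:**
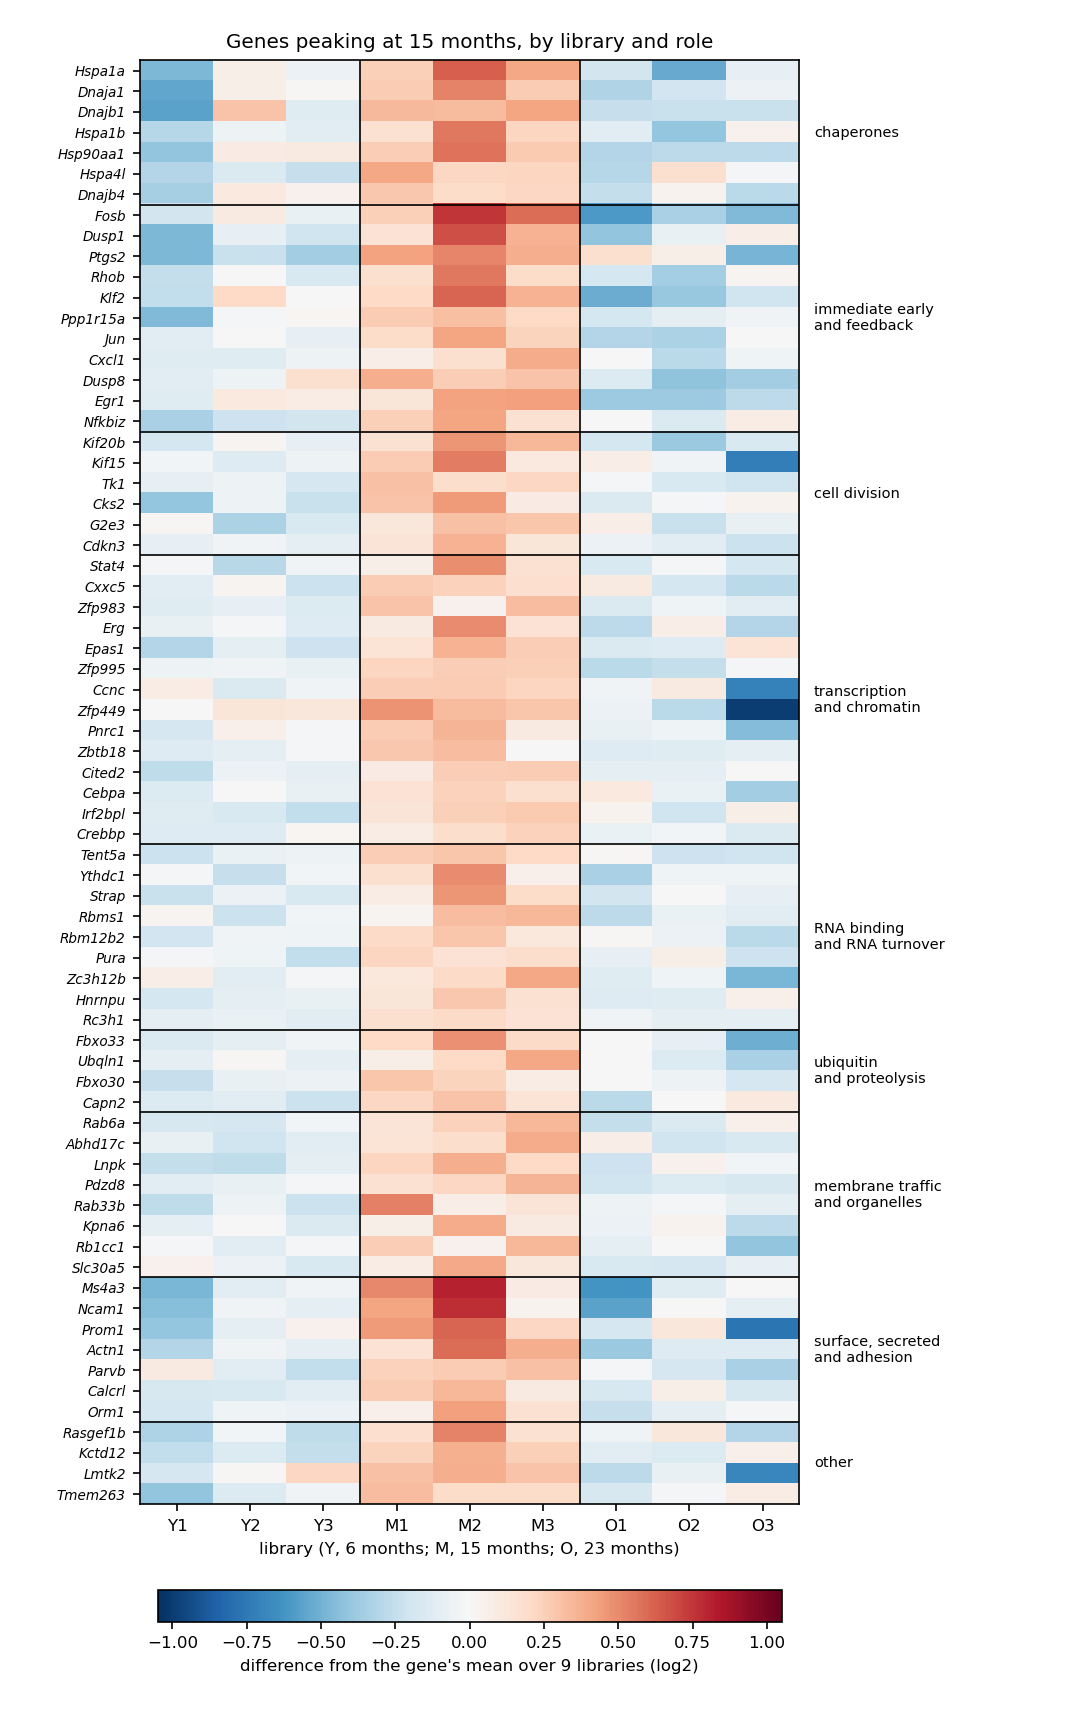
Each of the 70 rows is 1 of the 71 genes, grouped by role and ordered by gap within a role, each column is 1 library, and the colour is the library's difference from the gene's mean over 9 libraries on the log2 scale. The 3 columns at 15 months are above the gene's mean except for Zbtb18, where M3 is just below it; M2 is the highest library in 45 genes, and Y1 is the lowest young library in all 7 chaperone genes and all 11 immediate early and feedback genes.

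Chaperone genes formed one block of the group, with 7 genes and a median gap of 0.47. They were Hspa1a and Hspa1b, which encode inducible proteins of the HSP70 family, Dnaja1, Dnajb1 and Dnajb4, whose J-domain proteins stimulate HSP70, Hsp90aa1, the inducible form of HSP90, and Hspa4l, a nucleotide exchange factor for HSP70. Hspa1a read 8.60, 9.13 and 9.01 at 6 months, 9.32, 9.70 and 9.48 at 15 months, and 8.88, 8.54 and 8.98 at 23 months. Hspa1b, its near-identical neighbour, read 7.93, 8.18 and 8.13 at 6 months, 8.40, 8.79 and 8.46 at 15 months, and 8.11, 7.82 and 8.28 at 23 months. M2 was the highest library for both genes and Y1 was well below Y2 and Y3; young and old libraries overlapped. Because the copies are nearly identical, reads may have been split between them in a way the sources do not describe, and the values are uncertain as values of single genes.

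The co-chaperone gene Dnaja1 read 12.92, 13.53 and 13.48 at 6 months, 13.73, 13.99 and 13.73 at 15 months, and 13.15, 13.26 and 13.41 at 23 months. Dnajb1 read 11.59, 12.45 and 12.02 at 6 months, 12.49, 12.48 and 12.56 at 15 months, and 11.91, 11.91 and 11.91 at 23 months. For Dnajb1 library Y2 came within 0.03 of the lowest 15-month library, Y1 was the lowest of all 9, and the old libraries were nearly equal. Hsp90aa1 read 12.03, 12.53 and 12.54 at 6 months, 12.71, 13.02 and 12.72 at 15 months, and 12.14, 12.17 and 12.17 at 23 months, with M2 highest, the old libraries tightly together and Y1 below all of them. The gaps of these genes were 0.58 (Hspa1a), 0.51 (Dnaja1), 0.49 (Dnajb1), 0.47 (Hspa1b) and 0.45 (Hsp90aa1), and those of Hspa4l and Dnajb4 were 0.33 and 0.30.

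Library Y1 was the lowest young library in 7 of 7 chaperone genes, with a mean difference of -0.42 from the genes' means, against 0.06 in Y2 and -0.06 in Y3. Without Y1 the median gap of the 7 genes was 0.31 in place of 0.47. Without M2 it was 0.36.

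Stretches of promoter are shown for 4 of the chaperone genes because heat shock factors bind arrays of the unit GAA in alternating orientation, and these stretches hold such a pair. The bases are those directly before the RefSeq transcription start on GRCm38.p6, 5′ to 3′ on the gene's strand, and the capitals mark GAANNTTC or TTCNNGAA. For Dnaja1, with 3 annotated windows, and Dnajb4, with 2, the window holding the pair is shown, and that of Dnaja1 overlaps exons of non-coding transcripts.
Hspa1a (chr17:34972157-34972306, minus strand): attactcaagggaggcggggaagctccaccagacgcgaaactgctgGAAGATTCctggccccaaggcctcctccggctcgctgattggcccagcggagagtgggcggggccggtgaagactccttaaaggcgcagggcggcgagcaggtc
Hspa1b (chr17:34959239-34959388, minus strand): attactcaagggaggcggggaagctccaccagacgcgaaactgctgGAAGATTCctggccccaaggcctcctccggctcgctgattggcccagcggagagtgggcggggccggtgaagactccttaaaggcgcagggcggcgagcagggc
Dnaja1 (chr4:40722318-40722467, plus strand): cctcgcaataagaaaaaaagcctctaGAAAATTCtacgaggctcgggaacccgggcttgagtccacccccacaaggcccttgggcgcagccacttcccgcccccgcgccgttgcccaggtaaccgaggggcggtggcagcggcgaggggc
Dnajb4 (chr3:152193846-152193995, minus strand): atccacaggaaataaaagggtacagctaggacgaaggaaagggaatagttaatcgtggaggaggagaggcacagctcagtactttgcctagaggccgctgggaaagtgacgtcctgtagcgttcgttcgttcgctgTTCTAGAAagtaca
The pair GAAGATTC begins 104 bases before the start in both HSP70 genes, whose printed stretches differ at 1 of 150 bases, so these count as 1 sequence rather than 2. GAAAATTC begins 124 bases before the start of Dnaja1, and TTCTAGAA begins 14 bases before that of Dnajb4. Over windows of 300 bases, 250 before to 50 after the start, GAANNTTC occurred in 8.33% of the 72 windows of the 71 genes and in 6.07% of 13781 windows of all tested genes, and TTCNNGAA in 6.94% and 7.07%. Both motifs equal their reverse complement, so a single search covers both strands, and they can overlap each other. Of the 10 windows of chaperone genes, 3 held GAANNTTC and 1 held TTCNNGAA, and a window of Jun, which is no chaperone gene, also held GAANNTTC. These shares describe letters in a window and say nothing of binding.

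Immediate early and feedback genes were the next block, with 11 genes and a median gap of 0.37. Fosb encodes a subunit of the transcription factor AP-1. It read 10.89, 11.18 and 11.01 at 6 months, 11.34, 11.83 and 11.67 at 15 months, and 10.49, 10.75 and 10.62 at 23 months. M2 and M3 were highest, and all 3 old libraries lay below all 3 young ones. Jun, the partner subunit, read 11.53, 11.64 and 11.56 at 6 months, 11.84, 12.06 and 11.89 at 15 months, and 11.34, 11.31 and 11.65 at 23 months, with O3 just above the young libraries and O1 and O2 below them. Egr1, a zinc finger transcription factor, read 13.82, 14.05 and 14.03 at 6 months, 14.07, 14.37 and 14.38 at 15 months, and 13.57, 13.57 and 13.67 at 23 months. M1 exceeded Y2 by 0.03, and again the old libraries all lay below the young ones.

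Klf2 encodes a Krüppel-like transcription factor known for restraining inflammatory gene expression. It read 11.30, 11.76 and 11.56 at 6 months, 11.76, 12.17 and 11.92 at 15 months, and 11.03, 11.16 and 11.35 at 23 months, and M1 and Y2 were equal at this precision. Rhob, a small GTPase gene induced as an immediate early gene, read 13.83, 14.07 and 13.92 at 6 months, 14.25, 14.63 and 14.27 at 15 months, and 13.90, 13.72 and 14.11 at 23 months, with M2 apart from the other libraries. These last 3 genes had gaps of 0.31, 0.41 and 0.44, and Fosb had the largest of the block, 0.59.

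Some of the 71 genes encode proteins that end stress or inflammatory signals. Dusp1 encodes a phosphatase that inactivates the p38 and JNK MAP kinases. It read 12.998, 13.39 and 13.27 at 6 months, 13.62, 14.15 and 13.83 at 15 months, and 13.06, 13.39 and 13.54 at 23 months, with M2 highest and young and old overlapping. Dusp8, a related phosphatase, read 8.66, 8.72 and 8.94 at 6 months, 9.15, 9.04 and 9.07 at 15 months, and 8.63, 8.35 and 8.41 at 23 months, where the old libraries were all below the young ones. Ppp1r15a, whose product directs protein phosphatase 1 to the translation factor eIF2 alpha and so restores translation after stress, read 13.19, 13.63 and 13.67 at 6 months, 13.91, 13.96 and 13.85 at 15 months, and 13.47, 13.54 and 13.61 at 23 months. The middle-aged libraries of Ppp1r15a spanned 0.11, and Y1 was the lowest library.

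The stretches upstream of Dusp1 and Ppp1r15a are shown for the cAMP response element, capitals TGACGTCA, which equals its reverse complement. Bases that overlap an annotated untranslated region were left out.
Dusp1 (chr17:26508520-26508622, minus strand): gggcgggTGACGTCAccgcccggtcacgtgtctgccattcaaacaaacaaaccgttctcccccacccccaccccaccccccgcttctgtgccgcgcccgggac
Ppp1r15a (chr7:45526269-45526329, minus strand): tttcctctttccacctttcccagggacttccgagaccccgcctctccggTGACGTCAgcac
The element begins 143 bases before the start of Dusp1 and 12 bases before that of Ppp1r15a. It occurred in 6.94% of the 72 windows and in 2.85% of all 13781, and 3 of the 5 genes with it were Dusp1, Dusp8 and Ppp1r15a. The AP-1 motif TGANTCA occurred in 4 of the 72 windows and in 772 of the 13781.

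Among inflammatory products, Ptgs2 encodes the inducible cyclooxygenase that starts prostaglandin synthesis. It read 10.46, 10.70 and 10.56 at 6 months, 11.35, 11.44 and 11.31 at 15 months, and 11.09, 10.99 and 10.44 at 23 months, and all 3 middle-aged libraries were close together while O3 lay below O1 and O2, at the level of the young libraries. Nfkbiz, which encodes a nuclear IκB protein induced by NF-κB, read 12.32, 12.45 and 12.47 at 6 months, 12.91, 13.07 and 12.82 at 15 months, and 12.67, 12.51 and 12.74 at 23 months, with every old library above every young one. Cxcl1, a chemokine gene that draws neutrophils, read 7.86, 7.86 and 7.93 at 6 months, 8.06, 8.16 and 8.38 at 15 months, and 7.99, 7.70 and 7.95 at 23 months, and M3 was its highest library. Y1 was the lowest young library in 11 of the 11 genes of this block (for Cxcl1 level with Y2 at this precision), and the median gap was 0.30 without Y1 and 0.34 without M2.

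**Figure D2:**
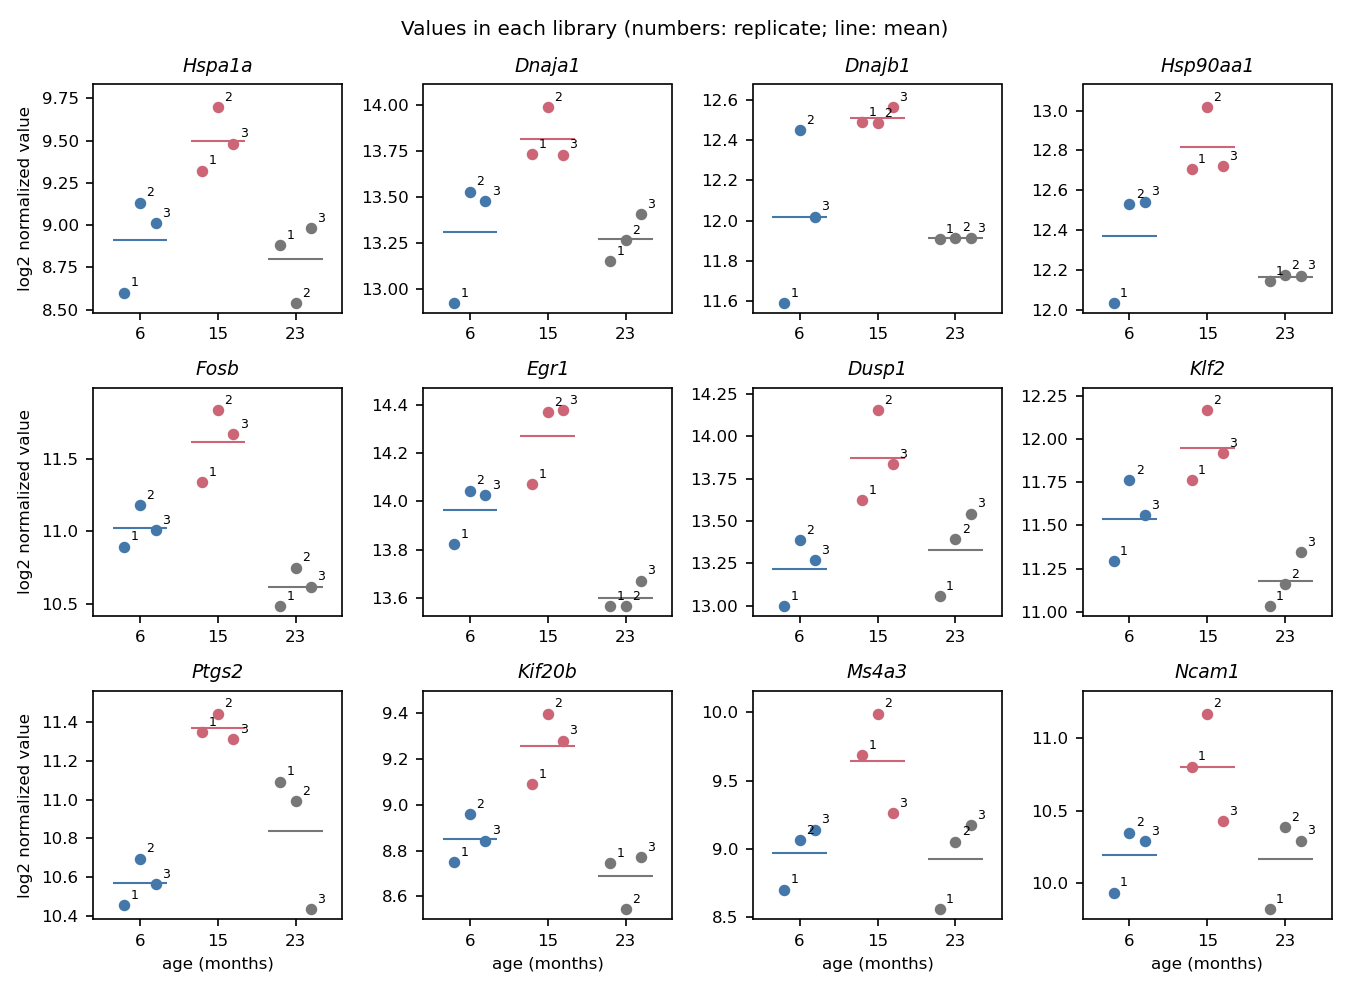
Log2 values of 12 of the genes in every library (points, numbered by replicate) at 6, 15 and 23 months, with the mean of each age as a line. The axes do not start at 0 and differ between panels. Dnajb1 in Y2 comes within 0.03 of the lowest 15-month library, Ms4a3 and Ncam1 have M3 close to the other ages, and Fosb and Egr1 have all old libraries below the young ones.

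Genes of cell division numbered 6, with a median gap of 0.33. Kif20b and Kif15 encode mitotic kinesins, Tk1 the thymidine kinase of S phase, Cks2 a subunit of cyclin-dependent kinases, Cdkn3 a phosphatase acting on those kinases, and G2e3 a ubiquitin ligase of the G2 and M phases. Kif20b read 8.75, 8.96 and 8.84 at 6 months, 9.09, 9.40 and 9.28 at 15 months, and 8.75, 8.54 and 8.77 at 23 months, a gap of 0.41. Its M2 value was highest and O2 lowest. Y1 was the lowest young library in only 2 of the 6, and without Y1 their median gap was 0.34, without M2 0.27. The list of 28 proliferation genes such as DNA replication factors and mitotic cyclins held none of the 71. Where 0.669% of genes at the minimum mean were selected, that count says nothing about the list. Of the 28 genes, 17 (60.7%) had their highest mean at 15 months, against 29.8% of all genes tested. The median middle-aged minus young difference of the 28 was 0.13.

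Transcription and chromatin genes were the most numerous role, with 14 genes and a median gap of 0.29. They included Crebbp, an acetyltransferase that coactivates many factors, Cited2 and Ccnc, a CBP-binding regulator and the cyclin of the Mediator kinase module, Cebpa, a myeloid transcription factor, Epas1, the hypoxia-inducible factor HIF-2 alpha, Stat4, Erg, Cxxc5, Zbtb18, Pnrc1, Irf2bpl and the zinc finger genes Zfp983, Zfp995 and Zfp449. Crebbp, the most abundant gene of the role, read 14.16, 14.16 and 14.31 at 6 months, 14.38, 14.48 and 14.54 at 15 months, and 14.23, 14.27 and 14.14 at 23 months. Zfp995 read 7.44, 7.46 and 7.41 at 6 months, 7.72, 7.75 and 7.74 at 15 months, and 7.21, 7.25 and 7.47 at 23 months, with the middle-aged libraries spanning 0.03. Zfp449 read 8.88, 9.002 and 8.99 at 6 months, 9.35, 9.21 and 9.17 at 15 months, and 8.81, 8.60 and 7.88 at 23 months, where O3 was far below the other 8 libraries. Of 299 tested genes named Zfp, 3 were among the 71, and 30.1% had their highest mean at 15 months, against 29.8% of all 14955 genes tested. Without M2 the median gap of the 14 genes was 0.24.

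RNA-binding genes followed with 9 genes and a median gap of 0.29. Ythdc1 encodes a nuclear reader of methylated adenosine in RNA, Rc3h1 the decay factor Roquin-1, Zc3h12b a ribonuclease of the Regnase family, Tent5a a poly(A) polymerase and Hnrnpu a nuclear ribonucleoprotein; the others were Rbms1, Rbm12b2, Pura and Strap. Rc3h1 read 11.61, 11.63 and 11.58 at 6 months, 11.87, 11.90 and 11.86 at 15 months, and 11.67, 11.61 and 11.60 at 23 months. Each age was narrow for this gene, with 0.05 between the extremes of the middle-aged libraries beside a gap of 0.25. Hnrnpu read 12.87, 12.96 and 12.98 at 6 months, 13.18, 13.33 and 13.21 at 15 months, and 12.91, 12.92 and 13.10 at 23 months, with M2 highest and O3 above the other old libraries. Of 33 splicing regulators Hnrnpu was the only one among the 71, where 0.669% of genes at the minimum mean were selected.

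Protein turnover and membrane traffic made up 13 more genes. Fbxo33 and Fbxo30 encode substrate receptors of ubiquitin ligases, Ubqln1 a shuttle to the proteasome and Capn2 a calcium-dependent protease, with gaps from 0.28 to 0.40. The 9 traffic and organelle genes had gaps from 0.26 to 0.36. Among them, Rab6a and Rab33b encode GTPases of the Golgi, Lnpk and Pdzd8 proteins of the endoplasmic reticulum, Rb1cc1 a scaffold that starts autophagy, Slc30a5 a zinc transporter, Kpna6 a nuclear import receptor and Abhd17c a depalmitoylating enzyme. M2 was the highest library in only 3 of these 9, and their median gap was 0.33 without M2 against 0.32 with it. None of 37 proteasome genes was among the 71, which says nothing about them where 0.669% of genes at the minimum mean were selected.

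Surface, secreted and adhesion genes had the largest median gap, 0.52, over 7 genes. Ms4a3, a membrane protein gene known from granulocyte and monocyte progenitors, had the largest gap of all 71 (0.68, 1.60-fold) and read 8.70, 9.06 and 9.14 at 6 months, 9.68, 9.99 and 9.26 at 15 months, and 8.56, 9.05 and 9.17 at 23 months. Ncam1, encoding a neural cell adhesion molecule, read 9.94, 10.35 and 10.29 at 6 months, 10.80, 11.16 and 10.43 at 15 months, and 9.82, 10.39 and 10.29 at 23 months. In both genes M1 and M2 were far above the rest, M3 exceeded the highest library of another age by 0.09 (Ms4a3) and 0.04 (Ncam1), and Y1 and O1 were lowest.

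Prom1, encoding the membrane glycoprotein prominin, read 8.13, 8.44 and 8.58 at 6 months, 8.98, 9.15 and 8.75 at 15 months, and 8.36, 8.66 and 7.77 at 23 months, with O3 lowest. Actn1, encoding the actin crosslinker alpha-actinin, read 10.33, 10.61 and 10.54 at 6 months, 10.79, 11.23 and 11.02 at 15 months, and 10.25, 10.51 and 10.51 at 23 months, with M2 highest and O1 lowest. The others were Orm1, an acute-phase protein gene, Calcrl, a neuropeptide receptor gene, and Parvb, an adhesion gene, with gaps of 0.31, 0.33 and 0.36. Without M2 the median gap of the 7 genes was 0.41.

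Markers of neutrophils were spread over the libraries in a similar order. The summed level of 16 markers, all of them in the table, was 329000, 566000 and 431000 in the young libraries, 546000, 1070000 and 494000 in the middle-aged ones and 272000, 497000 and 550000 in the old ones, in linear normalized units. M2 was thus well above all others, Y1 and O1 were the lowest, and M1 and M3 lay inside the range of the other ages. None of the 16 was among the 71, 15 had their highest mean at 15 months, 14 were highest in M2, and their means ran from 6.25 (Stfa2l1) to 17.58 (Ngp), so none was near 0. Monocyte markers, 16 of 16 in the table, summed to 50100 to 70800 at 6 months, 61700 to 121000 at 15 months and 62700 to 95000 at 23 months, with M2 again highest, though 5 of the 16 were highest in M2 and 5 had their highest mean at 15 months. In a bulk sample more cells of a type and more RNA per cell cannot be told apart. Without M2 the gaps were 0.51 for Ms4a3, 0.42 for Ncam1, 0.49 for Hspa1a and 0.48 for Fosb. The part of these cells in the peaks was not tested. Leaving out M2 is no such test, since M1 and M3 also held these transcripts.

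**Figure D3:**
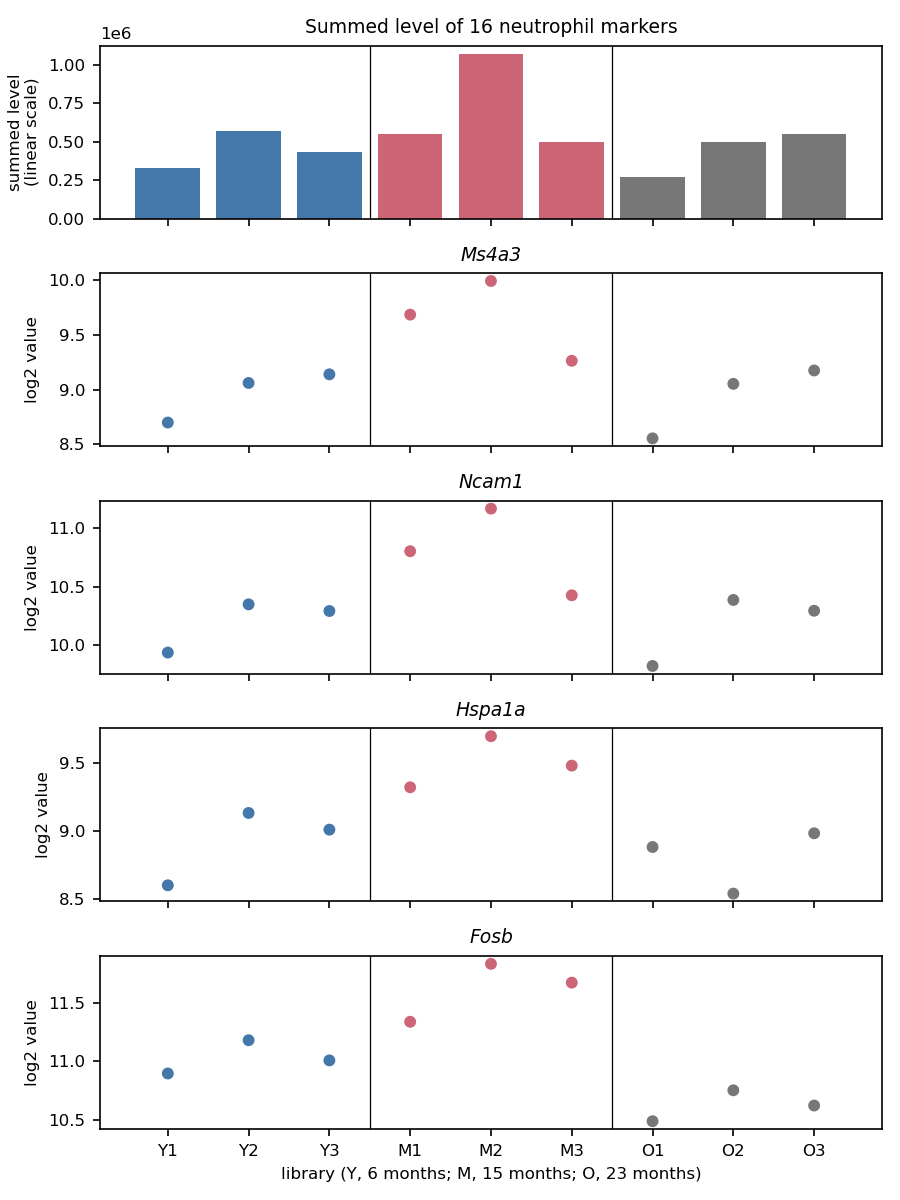
Bars give the summed linear level of 16 neutrophil markers in each library, and points give the log2 values of Ms4a3, Ncam1, Hspa1a and Fosb in the same libraries (point axes do not start at 0). M2 is highest and O1 lowest in the marker sum, in Ms4a3, in Ncam1 and in Fosb, while Hspa1a is lowest in O2.

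The remaining 4 genes were Rasgef1b, an exchange factor gene for Ras-like GTPases, Kctd12, an auxiliary subunit gene of GABA-B receptors, Lmtk2, a membrane kinase gene, and Tmem263. Kctd12 was the most abundant of them and read 13.46, 13.56 and 13.46 at 6 months, 13.94, 14.08 and 13.97 at 15 months, and 13.60, 13.57 and 13.77 at 23 months. The old libraries lay all above the young ones and all below the middle-aged ones.

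Between old and young microglia no gene of the 71 was called at an adjusted p under 0.05 (0 of 71, limma with Benjamini-Hochberg adjustment over 14955 genes), where 2.00% of all genes tested were called, and 7 (9.86%) had an unadjusted p under 0.05, against 16.8% of all genes tested. By the authors' deposited table from DESeq2, 2 of the 71, Fosb and Egr1, were lower at 23 months, where 2.90% of all genes with an adjusted p were lower. These shares are near or below the background, and the rule itself holds back genes with a large difference between these ages. No statement about the group is drawn from them. The median old minus young difference was -0.02 on the log2 scale, against -0.01 over all genes tested; 44 genes were on the negative side, 27 on the positive side, and 39 lay within 0.1 of no difference. With standard errors around 0.12, differences of that size could not be told from 0.

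Single genes went beyond that. Zfp449 had the most negative difference, -0.53 ± 0.20 (SE, adjusted p = 0.214), and without O3 it was -0.25. Fosb had -0.41 ± 0.14 (0.174), Lmtk2 -0.37 ± 0.15 (0.261), Egr1 -0.36 ± 0.10 (0.112), Klf2 -0.36 ± 0.15 (0.248) and Dusp8 -0.31 ± 0.11 (0.2), each with the limma adjusted p in brackets. On the other side Ptgs2 had 0.27 ± 0.16 (0.432) and Nfkbiz 0.23 ± 0.10 (0.283). Without O3 the difference was -0.20 for Lmtk2 and 0.47 for Ptgs2, and without O1 it was 0.14 for Ptgs2. None of these 8 was called; with weights that count the more variable libraries less, Fosb, Egr1, Klf2 and Ptgs2 were (4 of 71), in a fit that called 10.8% of all genes tested.

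Counted by overlap, 5 genes (Fosb, Egr1, Dusp8, Pdzd8 and Zfp449) had all old libraries below all young ones, where 12.3% of all genes tested did, and 2 (Nfkbiz and Kctd12) had them all above, where 12.2% did. In the other 64 genes young and old libraries overlapped, and these counts too are partly set by the rule. By role, the median old minus young difference ran from -0.10 in the chaperone genes, 6 of 7 of them negative, to 0.14 in the 4 remaining genes. The immediate early and feedback genes ran from -0.41 (Fosb) to 0.27 (Ptgs2), with 7 of 11 negative, and the transcription and chromatin genes from -0.53 (Zfp449) to 0.16, with 9 of 14 negative.

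**Figure D4:**
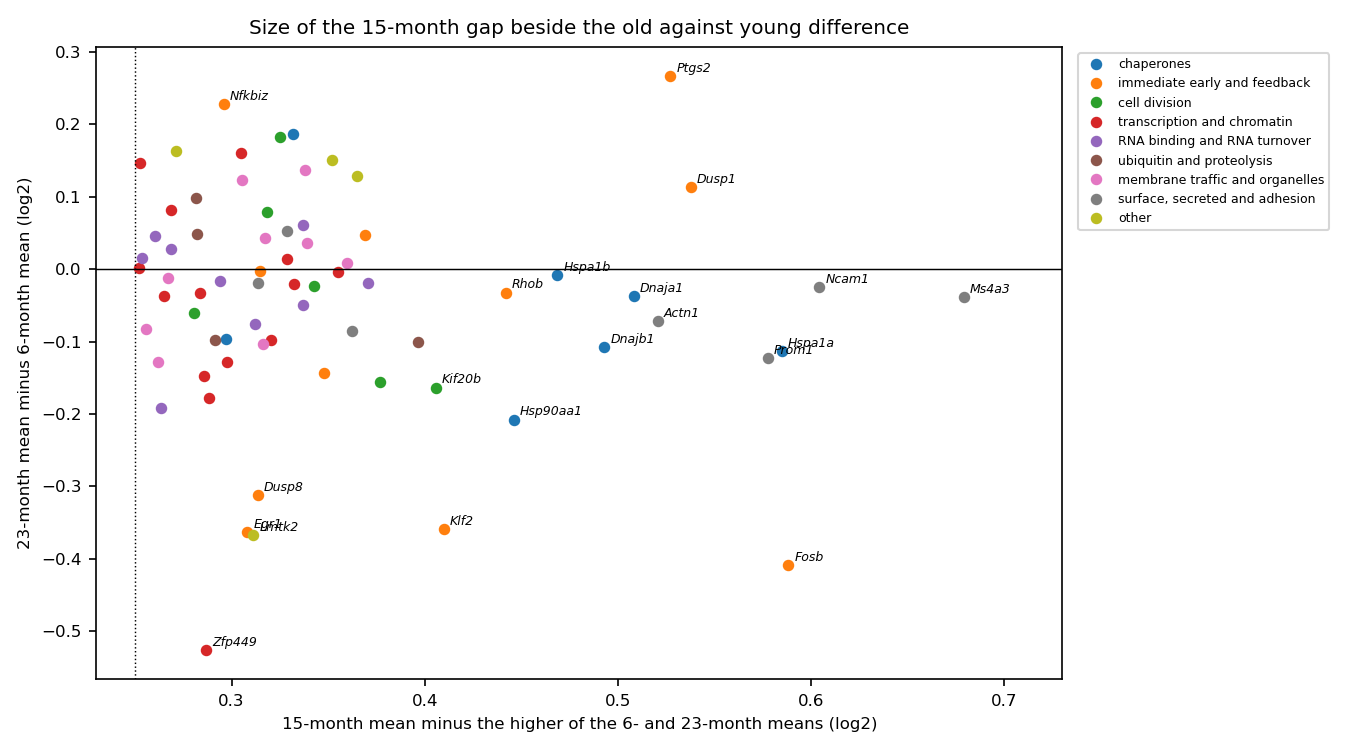
Each point is 1 of the 71 genes: the horizontal axis is the gap that the rule used (dotted line, the threshold of 0.25) and the vertical axis is the old minus young difference, both on the log2 scale, coloured by role. Most points lie near 0 on the vertical axis; Ptgs2 is highest at 0.27 and Zfp449 lowest at -0.53.

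For the pairs of ages that the rule used, counts are given as description. Against young libraries 0 of the 71 genes were called higher at 15 months (limma; 61 had an unadjusted p under 0.05), where 0.114% of all genes tested were called. Between 15 and 23 months 2 were called lower, Fosb and Egr1, where 0.0134% of all genes, these same 2, were called. The authors' deposited table from DESeq2 called 44 of the 71 higher at 15 than at 6 months, where 3.26% of all genes were. The authors' deposited table for 15 and 23 months called 17 of the 71 lower at 23 months, where 0.466% of all genes were. Since the rule chose on these differences, nothing is read from these shares.

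By the authors' deposited table the largest differences between 6 and 15 months (the first step) among the 71 were those of Ptgs2 (log2 1.04), Hspa4l (0.85) and Zfp995 (0.76). In the authors' deposited table of the second step, from 15 to 23 months, they were those of Fosb (-1.08), Klf2 (-0.84) and Dusp8 (-0.84). In the authors' deposited tables for the first and second step, Dnajb1 had 0.39 and -0.80, Egr1 0.34 and -0.78, Nfkbiz 0.63 and -0.35, and Hspa4l 0.85 and -0.36. Both tables use the middle-aged libraries, and whether the steps differ in size was not tested.

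The other genes of the same pathways were examined as whole lists, with the 71 genes left out. The lists were chosen with earlier results of these data known, and they use the same 15-month libraries as the rule. Genes of a list can also vary together in a library. Shares and calls that involve 15 months are thus given as description, and nothing is read from them. Of 11 other AP-1 genes tested, 9 (81.8%) had their highest mean at 15 months, and of 36 other immediate early genes 26 (72.2%) did, against 29.8% of all genes tested. Their median middle-aged minus young differences were 0.36 and 0.32, and their median old minus middle-aged differences -0.12 and -0.14. The authors' deposited table called 4 of the 11 and 11 of the 36 higher at 15 than at 6 months, against 3.26% of all genes. Limma called 0 of either list for these ages, with 6 of the 11 and 19 of the 36 at an unadjusted p under 0.05, against 11.4% of all genes tested. By limma, 2 of the 36 were called higher in old than in young libraries.

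Of 19 other heat shock genes, 11 (57.9%) had their highest mean at 15 months, with medians of 0.18 for middle-aged minus young and -0.04 for old minus middle-aged. Of 10 other MAP kinase phosphatase and Sprouty genes 5 did, of 32 other splicing regulators 53.1%, of 23 other inflammatory cytokine and chemokine genes 30.4% and of 20 other NF-κB genes 6. In the inflammatory list the median old minus young difference was 0.64, and 10 of the 23 genes were called higher in old than in young libraries (limma). Of the 24 inflammatory genes Cxcl1 was the only one among the 71, where 0.669% of genes at the minimum mean were selected.

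The lists of the PI3K, AKT and mTOR pathway, of translation factors, of ribosomal proteins and of disease-associated microglia held none of the 71. Since 0.669% of genes that reached the minimum mean were selected, a count of 0 in lists of this size says nothing about them. Of 53 tested PI3K, AKT and mTOR pathway genes 18.9% had their highest mean at 15 months, of 68 translation factors 20.6%, of 81 ribosomal protein genes 13 and of 29 genes of disease-associated microglia 3.45%. The last list was higher still at 23 months, with a median old minus middle-aged difference of 0.62 and 22 of 29 genes called higher in old than in young libraries. Of 28 genes listed for homeostatic microglia, 3 (Rhob, Jun and Egr1) were among the 71, and all 3 are also on the immediate early lists. Of the 25 others 1 (4%) had its highest mean at 15 months. In the 25 others the median old minus young difference was -0.26, and 5 were called lower.

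**Figure D5:**
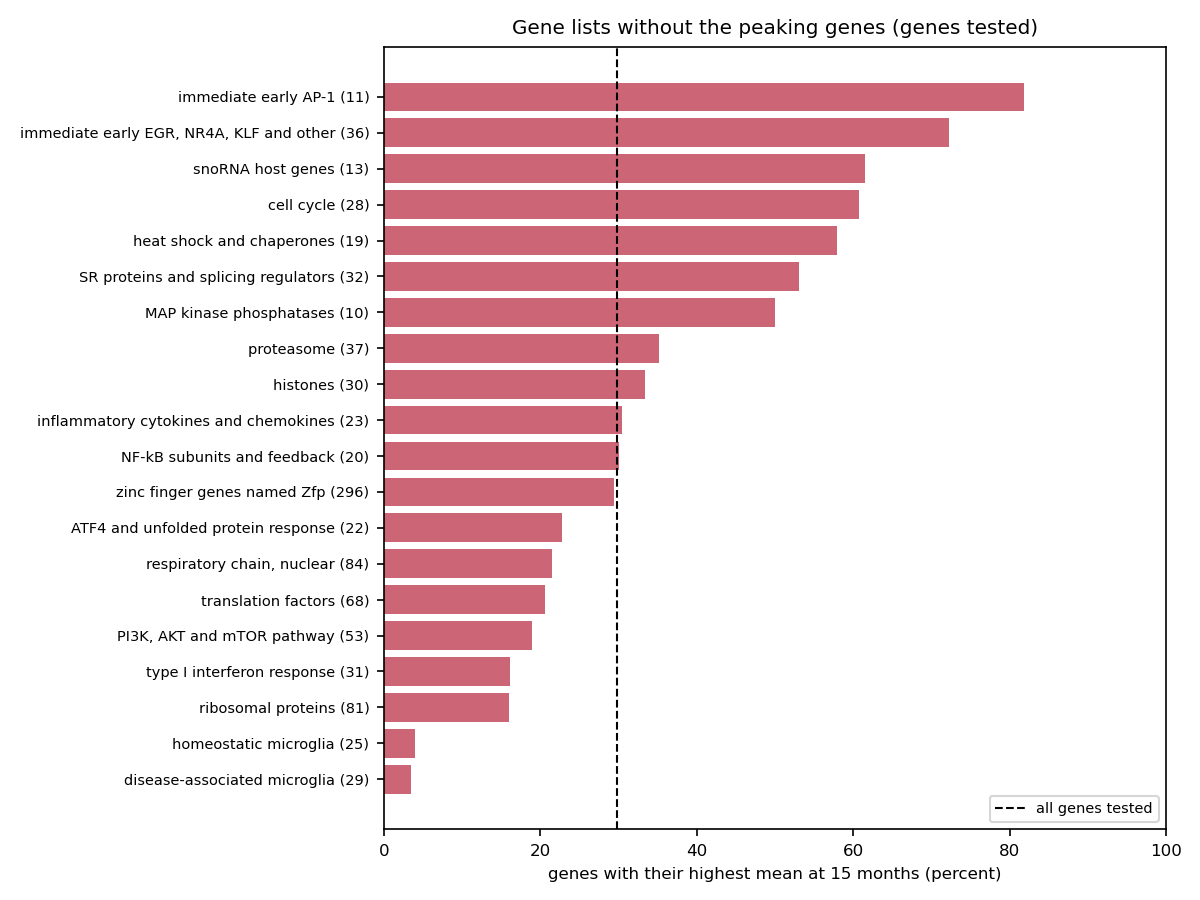
Bars give, for each gene list without the 71 genes (number tested in brackets), the percent of genes whose mean was highest at 15 months; the dashed line is the 29.8% of all genes tested. The AP-1 list is at 81.8% and the disease-associated microglia list at 3.45%.

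The 71 genes shared some features that the rule did not use. All 71 were protein coding, against 93.2% of genes that reached the minimum mean, and 13 (18.3%) had a single exon in their longest annotated transcript, against 7.79% of those genes. The 13 were Hspa1a, Hspa1b, Rhob, Kctd12, Jun, Abhd17c, Cxcl1, Dnajb4, Zbtb18, Cited2, Cebpa, Slc30a5 and Irf2bpl; for some, such as Cxcl1, the longest annotated transcript may not be the usual one. The median number of exons was 5, against 8. They lay on 20 chromosomes, with 7 each on chromosomes 1 and 4.

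Some of the 71 genes lay within 250 kb of each other. Hspa1b and Hspa1a are 9951 bases apart (chromosome 17 at 34956436 to 34959238 and chromosome 17 at 34969190 to 34972156 of GRCm38). Zfp983 and Zfp995 are 214603 bases apart on chromosome 17. Other leading genes were Fosb on chromosome 7 at 19302696 to 19310051, Dnaja1 on chromosome 4 at 40722150 to 40737149, Dusp1 on chromosome 17 at 26505590 to 26562128, Ptgs2 on chromosome 1 at 150100031 to 150108227 and Ms4a3 on chromosome 19 at 11629496 to 11640851. A promoter window was found for 58 of the 71 genes. Among motifs not yet named, the share of windows was 65.3% of those of the 71 genes and 58.0% of all for the GC box GGGCGG, 40.3% and 37.6% for the CCAAT box, 13.9% and 7.75% for TATAAA, 6.94% and 9.56% for the E-box CACGTG, 1.39% and 1.26% for the serum response element, 9.72% and 13.1% for the NF-κB site and 6.94% and 3.35% for the ISRE, on both strands.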

How the data were processed

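The 9 libraries were 3 pools of 3 mice at each of 3 ages, grouped by the labels. Their protocol names no counter or annotation. Per the submitters' processing notes, the authors used the genome build mm10 and, with no role stated, DESeq2 1.16.1, STAR 2.5.3, cutadapt 1.13 and CASAVA. The deposited per-library table holds log2-scale values from -2.14 to 20.05 by a transformation that no header names; they were used as deposited. Since whole reads could not be recovered, depth is unknown and no count model was run. For each pair of ages the authors' deposited table lists, per the file headers, the base mean (a signal), the log2 fold change with its error, the test statistic (a score), and raw and adjusted p-values. Their sign was checked against the library values.

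The 14955 genes that reached log2 of 10 (3.32) in 3 or more libraries were tested. A linear model with 3 ages was fitted with limma 3.58.1 in R 4.3.3 (variance trend, prior degrees of freedom 4.57, residual 6), with its moderated tests (two-sided) and Benjamini-Hochberg adjustment at 0.05. The model was tested on simulated data. Fold changes come from transformed values and may be smaller than those of counts. Same-numbered libraries did not deviate together in all pairs, and the main fit treated the libraries as unpaired. Whether the numbers mark libraries prepared together is unknown. The 71 genes and all lists were chosen with earlier results of these data known, and the 9 roles were assigned after the members were found. The 15 genes with the largest gap and up to 5 per list were given with full values, except Zfp983, which has no library values here. The 3 genes on each side of the threshold were given by their gap, and of them Crebbp and Rc3h1 with full values too. Other members are named within their role, and Kctd12, Lmtk2, Hspa4l, Dnajb4, Orm1, Calcrl and Parvb were given values after these were seen. Positions come from GENCODE M21 on GRCm38, promoters from RefSeq. Alternatives covered scaling, filters, pseudocount, variance settings, weights, the samples fitted, the replicate block, the rule's thresholds and leaving out each library. The results of 1 member on its own are not reported here. Figures were drawn with matplotlib 3.10.9.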

Additional observations from a re-analysis of the deposited data

How the results depend on the processing

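No gene of the 71 was called in old against young libraries under median scaling, quantile normalization, no filter, a stricter filter, a pseudocount of 8, no variance trend, robust variance, or a fit of young and old libraries alone (limma). The exceptions were library weights, with 4 genes in a fit that called 10.8% of all genes, and the authors' deposited DESeq2 table, with 2. Over all genes tested, the fits without a call among the 71 called from 153 (young and old libraries alone) to 366 (stricter filter). The rule itself holds back genes with a large difference between these ages. No statement about the group is drawn from these counts. With weights Fosb was at -0.46 (adjusted p = 0.0241), Ptgs2 at 0.45 (0.0157), Klf2 at -0.46 (0.0293) and Egr1 at -0.42 (0.0114). Leaving out each library in turn gave 0 calls each time, where 83 (without Y3) to 322 (without M3) of all 14955 genes were called. The smallest adjusted p of the 71 genes lay between 0.0673 and 0.374 in these limma fits. With the replicate block 0 genes were called and 185 over all genes in place of 299. Same-numbered libraries correlated from -0.24 to 0.23. Differently numbered ones reached further, from -0.44 (Y2 and M3) to 0.42 (Y1 and M3). These values show no sign of pairing by number but do not settle whether the numbers pair the libraries. The median old minus young difference ran from -0.06 to 0.0004 without a young library and was 0.01 without O3. The membership itself moved more: the rule found 158 genes at a gap of 0.15, 9 at 0.5 and 199 with overlap allowed, and 73 to 181 with 1 library left out, 117 of them without O3, 181 without M1 and 151 without M3. Without M2 it found 82 genes, of which 51 were among the 71, and without M2 and O3 together, an alternative chosen after seeing the data, 130. Median scaling left 68 and quantile normalization 70. Fewer libraries make the condition on overlap easier to meet. Unknown depth and 3 libraries per age limit the precision.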
